A study of Mus musculus with 12 samples.

Results

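Genes by which bone marrow stroma feeds and holds blood cells were followed in adipocytes of 2 mouse cell lines. The set comprised 10 genes named by role: the secreted or membrane-bound ligands Cxcl12, Kitl, Csf1, Il7, Flt3l, Tnfsf11 and Angpt1, the adhesion molecule Vcam1, and the transcription factors Foxc1 and Ebf3. Members were all probe sets annotated to 1 of these symbols alone, which gave 25 of 45101 probe sets on the array and covered 9 of the 10 genes. In all the array named 18194 genes by a symbol that stands alone on a probe set. Flt3l had no probe set of its own and has no value here. For each gene the probe set with the highest mean over all 12 arrays leads.

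ST2 is a stromal line derived from mouse marrow and labelled with the strain BC8. 3T3-L1 is a line of mouse fibroblast preadipocytes labelled Swiss albino. ST2 cells carried either the retrovirus pMSCV-SRA, which holds a human cDNA of the non-coding RNA SRA, or pMSCV alone (SRA and control, day 4 of differentiation). 3T3-L1 cells carried a short hairpin from the retrovirus pSuperior, either pSuperior-shSRA-2, aimed at the mouse transcript, or the control pSuperior-shcontrol (shSRA and shControl, day 8), which the sample titles name an empty vector. All 4 groups, of 3 arrays each, had received the MDIT cocktail of 0.5 mM 3-isobutyl-1-methylxanthine, 1 µM dexamethasone, 0.167 µM insulin and 5 µM troglitazone. The knockdown rests on 1 hairpin, and each virus was given to a single line. The lines also differed in day, growth medium and serum, strain and vector, so that none of these can be told apart from the line. Values are log2 expression as deposited, where a step of 1 is a doubling.

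In marrow, reticular stromal cells around the sinusoids secrete the chemokine CXCL12, which holds stem cells and B cell progenitors in place through the receptor CXCR4, and carry KIT ligand, which stem cells and early progenitors need. The same cells supply IL-7 for B lymphopoiesis and CSF1 for macrophages and osteoclasts. FOXC1 and EBF3 are transcription factors known to maintain these stromal cells, which are close kin of marrow adipocytes.

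The promoters of Cxcl12 and Csf1 are shown because both genes were lower with SRA overexpression. Angpt1, the third such gene, has none in the table used. Both sequences come from RefSeq (GRCm38.p6) and run from 250 bases before to 50 after the gene's start, 5′ to 3′ on the strand of the gene. Cxcl12 lies at chr6:117168285-117168584 on the plus strand and Csf1 at chr3:107760420-107760719 on the minus strand. Capitals mark letters of a searched motif, on either strand.

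Cxcl12: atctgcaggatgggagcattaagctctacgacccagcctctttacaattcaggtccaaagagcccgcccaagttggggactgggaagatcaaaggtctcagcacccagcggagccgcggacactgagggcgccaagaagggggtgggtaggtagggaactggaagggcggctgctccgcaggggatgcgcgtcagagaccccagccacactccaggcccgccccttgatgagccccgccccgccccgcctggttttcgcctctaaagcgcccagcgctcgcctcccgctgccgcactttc
Csf1: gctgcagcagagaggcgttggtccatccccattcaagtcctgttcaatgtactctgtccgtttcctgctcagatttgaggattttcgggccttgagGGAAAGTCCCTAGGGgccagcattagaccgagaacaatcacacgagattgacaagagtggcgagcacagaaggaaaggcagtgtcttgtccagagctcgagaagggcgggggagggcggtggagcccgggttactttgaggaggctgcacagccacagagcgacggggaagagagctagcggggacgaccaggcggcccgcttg

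Of the 10 members, 7 had a promoter in the RefSeq table. Angpt1, Il7 and Vcam1 were not in it. In the Csf1 promoter the NF-kB letters GGANTTTCC matched from position 97, counted from 1 at the 5′ end, and the EBF letters TCCCNNGGG from position 103, so that the matches overlap. These letters occur in 1.25% and 6.56% of all 32851 promoters of the same length. Among the other members with a promoter, only Ebf3 held any searched motif, an EBF match at position 229. The forkhead letters TGTTTAC (3.65% of promoters) and the AP-1 letters TGANTCA (7.81%) were found in none of the 7 windows.

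Most niche factors were far higher in ST2 than in 3T3-L1 adipocytes. Between the control groups, 7 of the 9 measured genes were higher in ST2 by limma at an adjusted p under 0.05 and none was lower, where 26.2% of all tested probe sets were higher and 37.4% lower. Of the 25 probe sets 22 passed the variance filter and 21 of these were higher in ST2. Members that passed this filter had to vary between some arrays, so the count is a description. The remaining 2 genes were Ebf3, whose difference did not pass, and Tnfsf11, whose leading probe set did not pass the filter.

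KIT ligand showed one of the clearest line differences. The leading probe set of Kitl read 13.47, 13.08 and 13.30 in ST2 control and 10.96, 10.54 and 11.18 in 3T3-L1 shControl adipocytes. The groups were more than 1 log2 step apart at their nearest arrays, and the log2 fold change was 2.40 (5.26-fold, standard error (SE) of the log2 value 0.21, adjusted p = 6.7e-09 by limma). The other 3 probe sets of Kitl gave 2.73, 2.99 and 2.75.

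Csf1, the growth factor of macrophages and osteoclast precursors, read 11.84, 11.72 and 12.12 in ST2 control against 9.66, 8.95 and 9.09 in shControl adipocytes. The groups lay apart with a log2 fold change of 2.66 (6.32-fold, SE 0.20, adjusted p = 9.61e-10 by limma). Its other probe sets gave 2.10 to 3.21.

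Vcam1, which binds the integrin VLA-4 on blood cells, read 11.66, 10.97 and 11.41 in ST2 control and 9.27, 9.14 and 8.95 in shControl adipocytes. All ST2 arrays were above all 3T3-L1 arrays (log2 fold change 2.23, SE 0.18, adjusted p = 3.36e-09 by limma). The transcription factor Foxc1 read 11.38, 10.92 and 11.48 against 9.90, 9.12 and 9.18, again without overlap (log2 fold change 1.86, SE 0.22, adjusted p = 5.95e-07 by limma).

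Il7, the lymphopoietic cytokine, had values of 6.59, 5.76 and 6.51 in ST2 control and of 4.75, 4.37 and 4.64 in shControl adipocytes. The difference was 1.70 on the log2 scale (SE 0.20, adjusted p = 4.99e-07 by limma). The other probe set of Il7 gave 0.65 (SE 0.16, adjusted p = 0.00221 by limma). The 3T3-L1 readings and the mean of ST2 control, 6.29, lie below the median of all probe sets on the arrays, 6.51. The deposited values carry no call of presence, so whether the gene was expressed in either line is not known.

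Angpt1, the ligand of the receptor TIE2, differed least among the genes that passed. It read 11.41, 10.78 and 11.14 in ST2 control and 10.50, 10.45 and 10.60 in shControl adipocytes (log2 fold change 0.59, SE 0.17, adjusted p = 0.0065 by limma). The difference held between the control groups and not between the lines as a whole: with both groups of each line averaged it was 0.15 (adjusted p = 0.268 by limma). Ebf3 read 8.98, 8.59 and 9.12 against 8.47, 8.77 and 8.37, and these groups overlapped (log2 fold change 0.36, 95% interval -0.01 to 0.73, adjusted p = 0.0824 by limma). Without ST2 control replicate 2 it was 0.51 (adjusted p = 0.0103). The probe set that leads for Ebf3 is of the kind whose probes can match transcripts of more than 1 gene.

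Tnfsf11, which encodes the osteoclast factor RANKL, was read differently by its 2 probe sets. The leading one read 5.29, 4.82 and 5.01 in ST2 control and 4.74, 5.10 and 4.92 in shControl adipocytes, and the groups overlapped. The other read 4.90, 4.33 and 4.98 against 3.95, 3.84 and 3.83, without overlap (log2 fold change 0.86, SE 0.17, adjusted p = 0.000331 by limma). Both lie well below the median of all probe sets.

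**Figure D1:**
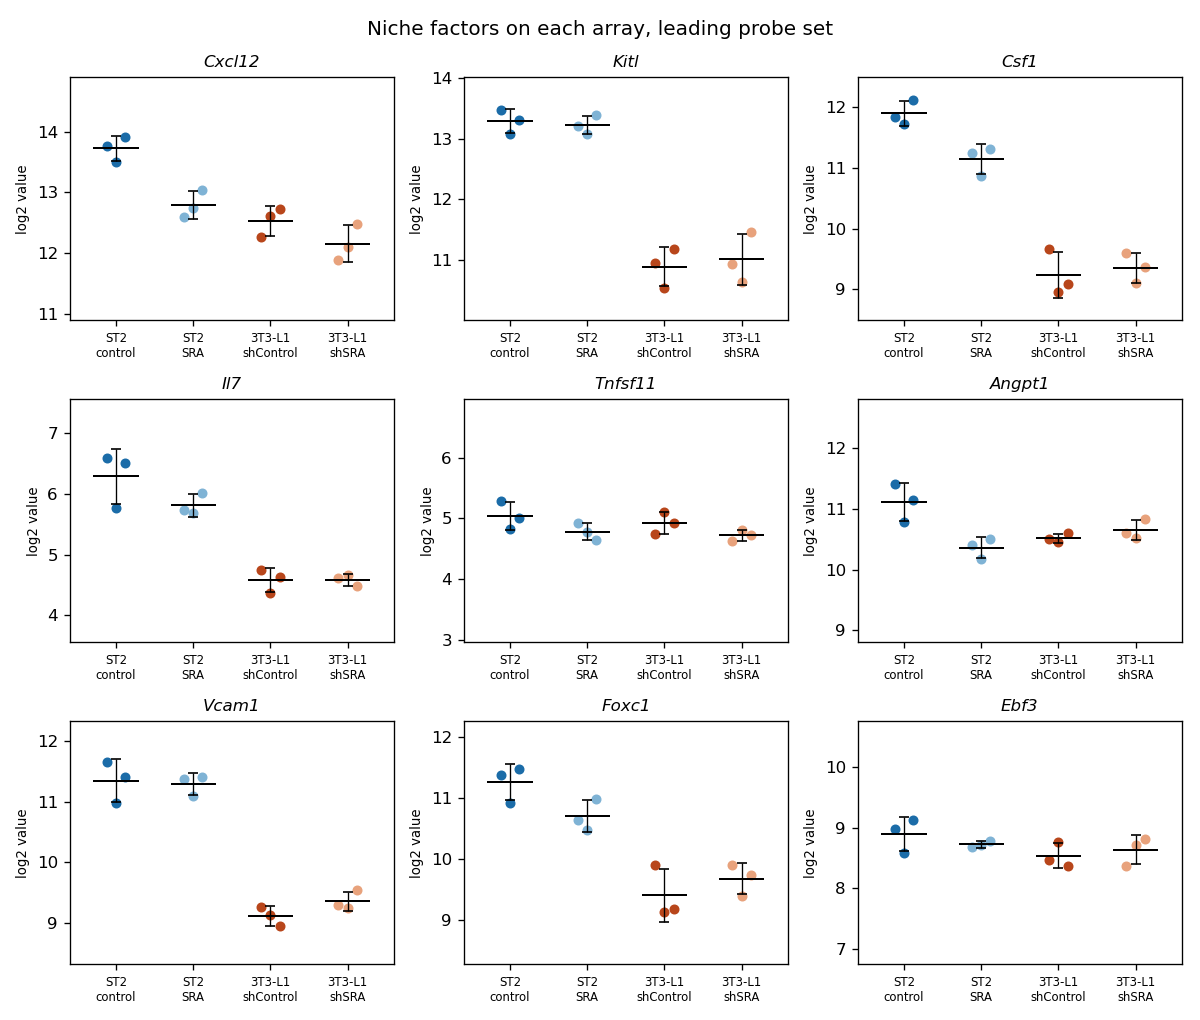
Log2 value (vertical axis, each panel spanning 4 log2 steps) of the leading probe set of the 9 measured genes on each array, by group (horizontal axis). Points are single arrays, lines the group mean and bars the SD of 3 arrays. Kitl, Csf1, Vcam1, Foxc1 and Il7 separate the 2 lines in all 4 groups, while Angpt1 has its highest mean in ST2 control.

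The size of the line difference of Cxcl12 depended on the probe set. The leading probe set (1448823_at) read 13.77, 13.50 and 13.91 in ST2 control and 12.26, 12.61 and 12.73 in shControl adipocytes, a log2 fold change of 1.19 (2.29-fold, SE 0.19, adjusted p = 2.7e-05 by limma). The second probe set (1417574_at) read 13.64, 13.29 and 13.75 in ST2 control but 9.24, 9.79 and 9.86 in shControl adipocytes. That is a log2 fold change of 3.93 (15.3-fold, SE 0.21, adjusted p = 4.09e-12 by limma). The third and dimmest probe set gave 1.19.

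Within an array, the leading probe set exceeded the second by 0.14 ± 0.06 (SD, n = 6) in ST2 and by 2.84 ± 0.11 (SD, n = 6) in 3T3-L1 adipocytes. The ranges over arrays were 0.04 to 0.21 and 2.69 to 3.03. The lines differed by -2.70 in this quantity (exact permutation test over 6 and 6 arrays, two-sided p = 0.00216, the smallest it can give). Of 16 such pairs of a leading and another probe set, over all members, this was the only one with a line difference above 1, and the next in size was 0.86. Pairs with smaller line differences reached the same p, such as -0.40 for Kitl and 0.54 for Csf1, so the p is not particular to Cxcl12. The arrays hold both SRA groups of each line, and the test was chosen after the values were seen. A within-array ratio shows unequal change and does not tell which of the probe sets follows the gene. Cxcl12 is known to make several spliced forms, and the positions of the probes were not used here.

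**Figure D2:**
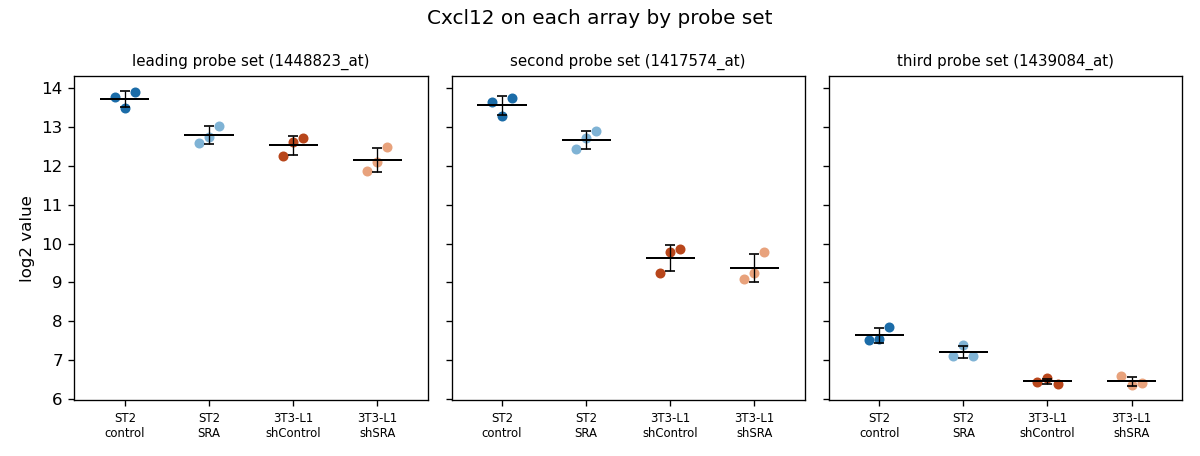
Log2 value (vertical axis, shared) of the 3 probe sets of Cxcl12 on each array, by group (horizontal axis). Points are single arrays, lines the mean and bars the SD of 3 arrays. The leading and second probe sets lie level in ST2 and about 2.84 apart in 3T3-L1 adipocytes.

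SRA overexpression lowered 3 of the 9 measured niche genes in ST2 adipocytes, Cxcl12, Csf1 and Angpt1, and raised none. Among all tested probe sets 5.65% were lower and 2.33% higher. Of the 22 member probe sets tested 8 were lower, 2 of Cxcl12, 3 of Csf1, both of Angpt1 and 1 of Tnfsf11. By the nested F classification, the call closest to the study's methods, 2 of the genes were lower by their leading probe set, Cxcl12 and Angpt1. In all 4 member probe sets were lower there, 2 of Cxcl12 and 1 each of Angpt1 and Csf1, where 4.21% of all probe sets were lower and 1.08% higher. The probe set of mouse Sra1 read 11.14, 10.67 and 11.24 in control and 11.13, 11.13 and 11.44 with SRA, with overlap (log2 fold change 0.22, adjusted p = 0.484 by limma), so the arrays give no check of the overexpression, whose cDNA is human. RNA came from whole cultures, in which fewer cells of a type and less RNA per cell cannot be told apart.

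Cxcl12 fell most. Its leading probe set read 12.59, 12.75 and 13.04 with SRA, each below the 3 control values given above, a log2 fold change of -0.93 (1.91-fold lower, SE 0.19, adjusted p = 0.00316 by limma). The second probe set, with 12.43, 12.71 and 12.89, fell by 0.89 (SE 0.21, adjusted p = 0.0104 by limma). The third and dimmest had -0.44 and did not pass (adjusted p = 0.0971 by limma). By the leading probe set SRA overexpressing ST2 adipocytes overlapped with shControl 3T3-L1 adipocytes. By the second they stayed more than 2 log2 steps above them.

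Csf1 read 11.25, 10.86 and 11.31 with SRA and lay below every control array. Its log2 fold change was -0.75 (SE 0.20, adjusted p = 0.0225 by limma), and 2 other probe sets passed with -0.71 and -0.91, while the dimmest had -0.51 (adjusted p = 0.103). The SRA arrays remained above all 3T3-L1 arrays. Angpt1 read 10.40, 10.18 and 10.51 with SRA, also without overlap (log2 fold change -0.75, SE 0.17, adjusted p = 0.0094 by limma). Its second probe set gave -0.65 (adjusted p = 0.0257 by limma).

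The other members had smaller or unsteady differences. Foxc1 read 10.64, 10.47 and 10.99 with SRA (log2 fold change -0.56, 95% interval -1.01 to -0.10, adjusted p = 0.133 by limma), and 1 SRA array lay above the lowest control array. Il7 read 5.73, 5.68 and 6.02 (log2 fold change -0.48, 95% interval -0.89 to -0.07, adjusted p = 0.152 by limma). Its lowest control value, 5.76, was on ST2 control replicate 2, and without that array the difference was -0.74 (adjusted p = 0.00353).

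Kitl read 13.21, 13.08 and 13.38 with SRA, level with control, and its log2 fold change of -0.06 had a 95% interval of -0.49 to 0.36. Vcam1 read 11.38, 11.09 and 11.41, with a log2 fold change of -0.05 and a 95% interval of -0.43 to 0.33. Ebf3 had -0.17 (95% interval -0.54 to 0.20). For Tnfsf11 the probe set that passed the filter read 4.10, 4.26 and 4.00 with SRA, below each control array (log2 fold change -0.62, SE 0.17, adjusted p = 0.032 by limma), and the leading one had -0.26 with overlap.

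The count of 3 lower genes rested on single arrays. It was 1, Cxcl12 alone, without ST2 SRA replicate 2, where Csf1 had adjusted p = 0.162 and Angpt1 0.0792 by limma. Without ST2 control replicate 3 Csf1 had adjusted p = 0.0941 by limma. The second ST2 control array was dimmer than its group over bright probe sets (median deviation -0.43) and over the members (-0.46). Cxcl12 passed with any array left out (adjusted p up to 0.0272 by limma).

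With SRA knockdown in 3T3-L1 adipocytes no niche gene passed. The target Sra1 read 11.86, 11.67 and 11.84 in shControl and 9.46, 9.20 and 9.62 in shSRA adipocytes (log2 fold change -2.36, adjusted p = 5.58e-07 by limma). The leading probe set of Tnfsf11 was not tested. Limma gave 0 of the 8 tested genes higher and 0 lower, also 0 at an unadjusted p under 0.05 and 0 by the nested F classification. Of all tested probe sets 0.0315% and 0.042% were called higher and lower by limma, or 0.241% and 0.231% by nested F. Of the 14 probe sets called 42.9% were higher. After a second quantile normalization 0.0262% of all probe sets were called, against 0.0734%, and 60.0% of those were higher. Both shares of higher probe sets rest on few calls. Same-numbered 3T3-L1 arrays deviated together, so that a fit blocked on the number was made, in which 0.53% of all probe sets were called and none of the members.

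Cxcl12 read 11.88, 12.11 and 12.48 in shSRA against 12.26, 12.61 and 12.73 in shControl adipocytes. Each shSRA array was below the shControl array of its number, while the groups overlapped (log2 fold change -0.38, 95% interval -0.78 to 0.02, adjusted p = 1, and 0.597 with the replicate block, both by limma). The second probe set had -0.25. The other leading probe sets lay between -0.19 for Tnfsf11 and 0.27 for Foxc1 (95% interval of Foxc1 -0.18 to 0.73). The intervals of the tested genes reach at most 0.78 in size, so larger changes of these genes lie outside them. Whether the effects of overexpression and knockdown differ was not tested.

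**Figure D3:**
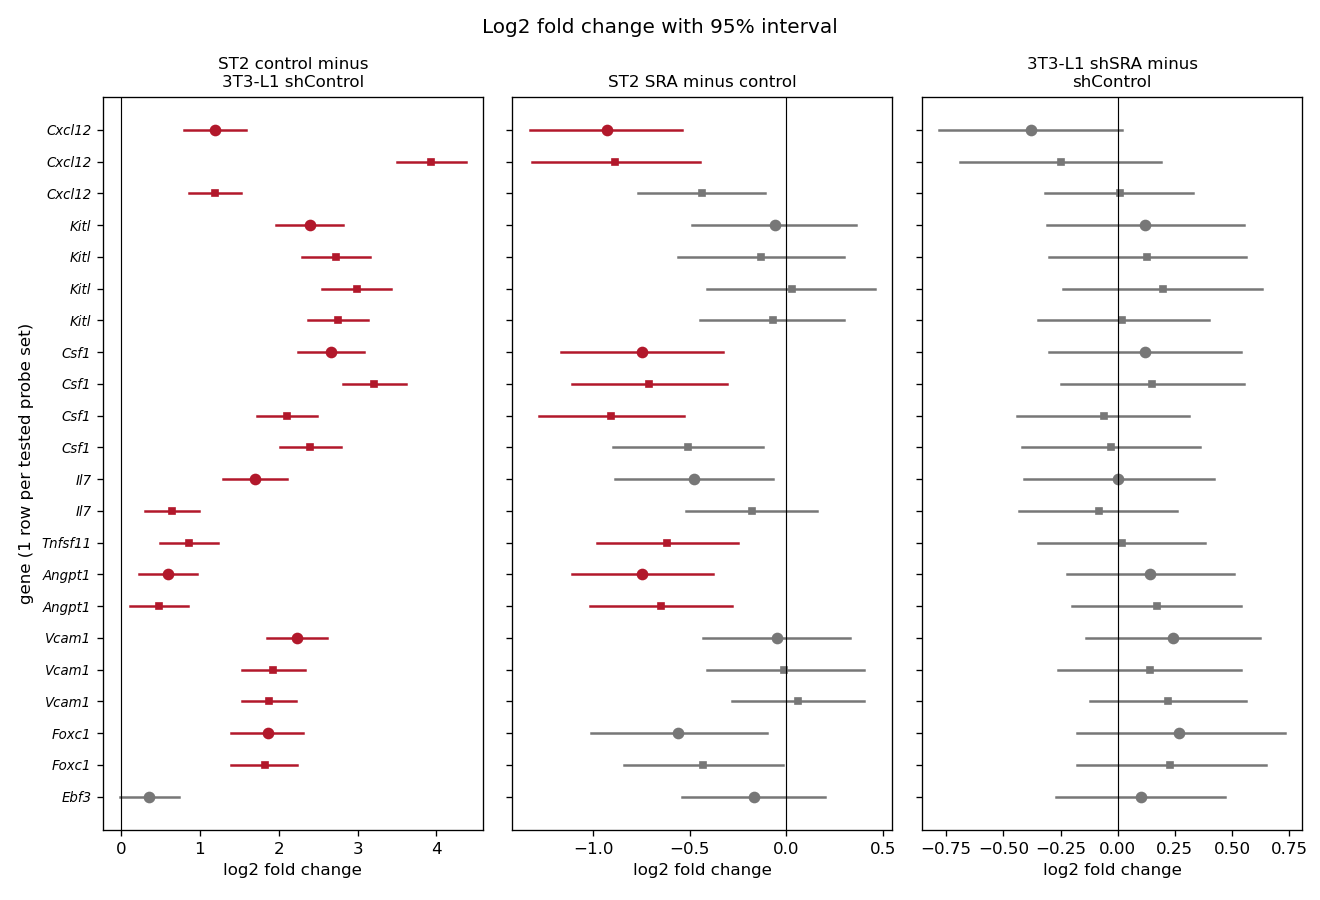
Log2 fold change (horizontal axes) with its 95% interval for each of the 22 tested probe sets of the members (rows), for the line comparison, SRA overexpression and SRA knockdown. Circles are leading and squares other probe sets, and red marks an adjusted p under 0.05 by limma. In the line comparison 21 probe sets are red, with overexpression 8 and with knockdown 0.

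Other secreted niche factors and adhesion molecules did not share one direction between the lines. Of 26 measured genes of this list 17 passed the filter, 7 were higher in ST2 control than in shControl adipocytes and 6 lower, where 26.2% of all tested probe sets were higher and 37.4% lower. Ccl2, which lets monocytes leave the marrow, was higher by 5.09 (SE 0.26, adjusted p = 1.79e-12 by limma) and the BMP antagonist Grem1 by 2.73. Ptn, the growth factor pleiotrophin, was lower in ST2 with a log2 fold change of -5.18 (SE 0.22, adjusted p = 9.38e-14 by limma), and Igf1 had -4.03. Over the genes of the list past the filter the median was 0.37, against -0.12 over all tested probe sets.

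With SRA overexpression 3 of these genes were lower and none higher, where 5.65% of all tested probe sets were lower and 2.33% higher. With the replicate block 5 were lower and 1, Angptl4, was higher, and without ST2 control replicate 2 there was also 1 higher. Ccl2 fell by 2.57 (SE 0.26, adjusted p = 2.69e-06 by limma), Grem1 fell by 1.63 and Fgf7, a growth factor for epithelium, fell by 1.40. When each array was centred on its bright probe sets, 5 genes of the list were lower. The median over the list was -0.18, against 0.07 over all tested probe sets. Knockdown changed none, with a median of 0.00 against 0.02. With the replicate block Il15, which supports natural killer cells, was lower there (log2 fold change -0.72, adjusted p = 0.0245, against 0.427 without the block, both by limma). It was named after its values were seen.

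Of 18 measured receptors, decoys and proteases of the members only 6 passed the filter. Mmp14, a membrane protease, was higher in ST2 control by 1.36 and lower with SRA, with a log2 fold change of -0.95 (adjusted p = 0.000866 by limma). Itgb7, an integrin chain, was higher in ST2 by 0.65, and the CXCL12 scavenger receptor Ackr3 had -1.35 between the lines. The means of Ackr3, 4.12 in ST2 control and 5.47 in shControl adipocytes, lie below the median of all probe sets. The receptors by which blood cells sense CXCL12 and KIT ligand did not pass the filter: Cxcr4 had means of 4.12 to 4.22 and Kit of 5.18 to 5.32 in the 4 groups.

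Of 21 measured genes used as markers of reticular stroma 14 passed the filter. Of these 6 were higher in ST2 control and 6 lower, beside 26.2% and 37.4% of all tested probe sets, with a median of -0.08. Without shControl replicate 2, 3 were higher. Esr1, the estrogen receptor, was higher in ST2 by 2.44. The surface protein Thy1 had a log2 fold change of -4.35, the Ebf3 relative Ebf2 -3.29 and Gas6, a ligand of TAM receptors, -2.89. Lepr, the leptin receptor by which marrow reticular cells are often found, had means of 5.61 to 5.81 in all groups, below the median of all probe sets (named after its values were seen).

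With SRA overexpression 5 of these markers were lower and none higher, beside 5.65% and 2.33% of all tested probe sets, with a median over the list of -0.03. Pdgfra and Pdgfrb, receptors of platelet-derived growth factor, had log2 fold changes of -1.25 and -0.90 (adjusted p = 0.000193 and 0.0031 by limma). The mesenchymal factor Prrx1 had -0.91 and Esr1 -0.96. The count was 3 without ST2 control replicate 1 or 3 or SRA replicate 1 or 2. No marker passed with knockdown, where Pdgfra had -0.50.

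The line comparison and the overexpression comparison share the ST2 control arrays, so a control array that reads high raises the first and lowers the second. For this reason no relation between them is given.

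The cultures were adipocytes by their markers. Fabp4 and Adipoq had means of 14.44 to 14.98 in the 4 groups, and Pparg was lower in ST2 control than in shControl adipocytes (log2 fold change -1.03, adjusted p = 0.000109 by limma). Of 11 measured blood cell and endothelial markers 1 passed the filter, Cd68, a lysosomal protein of macrophages, which was higher in ST2 control by 0.95 (adjusted p = 0.0312 by limma) with overlap and did not pass without ST2 control replicate 1, 2 or 3 or shControl replicate 2 or 3, each left out alone, nor without the variance filter. Ptprc, the pan-leukocyte marker CD45, had means of 4.05 to 4.19. The mean log2 value over the 11 markers ranged from 5.86 to 6.02 on ST2 and from 5.77 to 5.91 on 3T3-L1 arrays. Of the osteoblast markers, Sp7, Ibsp and Dmp1 did not pass the filter. Alpl passed it and had -0.02 with SRA overexpression and 0.10 between the lines (adjusted p = 0.967 and 0.627 by limma). Col1a1 had -1.47 with SRA overexpression (adjusted p = 0.000154 by limma) and -0.67 between the lines, a difference that did not pass without ST2 control replicate 2 or shControl replicate 2. The part of these markers in the results above was not tested.

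The 5 genes whose values followed the leading probe set of Cxcl12 most closely over the 12 arrays were Sdc1, Sphk1, Myl9, Cnn2 and Bicc1, among 8189 genes. Pearson's r was 0.986, 0.983, 0.978, 0.977 and 0.972, and within the 6 arrays of a line it was 0.97 to 1.00 in ST2 and 0.82 to 0.95 in 3T3-L1. These correlations describe arrays that share group, line and normalization. Between the lines the 5 genes had log2 fold changes of 1.00, 1.69, 2.02, 1.68 and 1.36, and with SRA overexpression of -0.83, -1.51, -1.40, -1.26 and -0.91. The genes were chosen for this pattern, so both are a description.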

How the data were processed

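RNA of 12 cultures was hybridised to Affymetrix mouse genome arrays. Log2 values were made by the authors with RMA (robust multi-array average, which corrects background, normalizes by quantiles and summarises probes) and used as deposited. The RMA version: not given in the sources used here. RMA gives no call of presence, and the number of arrays limits the precision.

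Tests covered probe sets whose variance across the 12 arrays exceeded 0.05, as the study's methods state (19068 of 45101). One linear model of the 4 groups was fitted in limma 3.58.1 (R 4.3.3), and each of 3 comparisons was adjusted alone by Benjamini-Hochberg at 0.05. Nested F classification of both SRA comparisons was an alternative, beside those in the closing section. Probe sets were named by the platform annotation, where 34958 had 1 symbol, 932 several and 9211 none. Exact permutation tests used scipy 1.17.1.

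Members and the 6 textbook lists were chosen with earlier results of these data known. Text names all members, up to 4 called genes per list and comparison by size of change, 5 genes most like Cxcl12, and checks. Replicate numbers paired the 3T3-L1 arrays (correlations of deviations 0.59, 0.59 and 0.38). For the ST2 arrays this was less clear (0.04, 0.27 and 0.53, against -0.44 to 0.21 for unlike numbers). On simulated arrays 200 of 19068 probe sets were changed. Of changes of 1 log2 step 92.5%, 91.0% and 85.1% were recovered for overexpression, knockdown and line. Of changes of 0.5 the shares were 7.46%, 16.4% and 5.97%. These shares hold for 200 changed probe sets and do not carry over to the numbers called in the real comparisons.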

Additional observations from a re-analysis of the deposited data

How the results depend on the processing

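The 7 member genes higher in ST2 control were 7 to 8 with any array left out. They were 6 with both groups of each line averaged, where Angpt1 did not pass, and 7 or 8 under the other alternatives tried. None was lower, and none passed with knockdown under any alternative. The number lower with SRA overexpression was 5 when each array was centred on its bright probe sets, where Il7 and Foxc1 joined (adjusted p = 0.0174 and 0.0416 by limma), and 1 to 4 with an array left out. It was 5 also with the replicate block, with Il7 and Foxc1 (adjusted p = 0.0412 and 0.012 by limma), although the numbers were not shown to pair every ST2 array. There SRA replicate 1 correlated better with control replicate 2 (0.21) than with control replicate 1 (0.04). SRA replicates 2 and 3 correlated best with the control of their own number (0.27 and 0.53). The block changed no other call among the leading probe sets of the members. Among list genes it added Il34, Bmp4, Itgb7 and Nr2f2 as lower and Angptl4 and Cd68 as higher with overexpression, and Il15 as lower with knockdown. It called 3023 against 1522 probe sets for overexpression and 101 against 14 for knockdown. Differences near 0 changed sign: Kitl with overexpression was 0.03 by the probe set of highest variance and -0.17 to 0.03 with an array left out, Vcam1 -0.24 to 0.11, and with knockdown Kitl was -0.10 to 0.31 and Csf1 -0.02 to 0.33. Centring moved the median of all probe sets in the line comparison from -0.12 to -0.02, and the second quantile normalization to -0.07, so the line differences are to be read against these shifts. The share of all probe sets called with overexpression was 7.98%, and 13.4% and 14.4% with the second quantile normalization and the centring. The causes were not tested. Changes of 0.5 log2 were mostly missed on the simulated arrays, where 200 probe sets changed. The share recovered depends on how many probe sets change. That recovery does not carry over to the line comparison, where 63.6% of all probe sets were called. Nor does it carry over to knockdown, where 14 probe sets were called, or to overexpression, where 1522 were. Between the lines the second probe set of Angpt1 passed with 0.48 (adjusted p = 0.0247 by limma), and Il15 with 0.44 did not (adjusted p = 0.0545 by limma).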

Other observations

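Members with several probe sets also differed in smaller ways in how far these parted between the lines. Within an array the leading probe set of Il7 exceeded the other by 1.54 ± 0.24 (SD, n = 6) in ST2 and by 0.68 ± 0.14 (SD, n = 6) in 3T3-L1 adipocytes. Both Il7 probe sets read far below the median of all probe sets in 3T3-L1, where a difference between them can shrink at the floor of the signal, so this value does not show that they part between the lines. For Csf1 the lines differed by -0.56 against one and by 0.54 against another of its probe sets. In 6 of 16 pairs the within-array differences of the 2 lines did not overlap. The 3 probe sets of Ebf3, the 2 of Foxc1 and the 2 of Angpt1 kept their distances within 0.08 between the lines.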
